A study of Mus musculus with 3 samples.

Results

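The repressor gene Rest and 9 genes of RNA-binding proteins of the neuronal splicing program were followed in cultured mouse small cell lung cancer (SCLC) cells in which Kdm1a was or was not knocked out. The members are Rest, Srrm4, Ptbp1, Ptbp2, Nova1, Nova2, Celf3, Elavl2, Elavl3 and Elavl4. They were taken by gene symbol, and all 10 were found among the 24523 genes of the deposited table. Tumours of this kind often express neuroendocrine and neuronal genes. Kdm1a encodes LSD1, a histone demethylase that works in complexes with CoREST proteins. The cells, called line 3 by the submitters, received the lentiviral vector Lenti-Crispr-V2 with no named guide (control, n = 1 library) or the same vector carrying guide sg1 or guide sg2 against Kdm1a (knock-out, n = 2 libraries, 1 per guide). Puromycin selection of all 3 cultures lasted 1 week or longer, and the labels do not say whether the cells were cloned. The control library held 43424212 gene counts, that of sg1 44667861 and that of sg2 51066078. Values given 3 at a time below are in the order control, sg1, sg2.

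REST is a zinc-finger repressor that binds a DNA element called RE1 in neuronal genes and recruits LSD1 with CoREST and histone deacetylases, and SIN3 proteins. It keeps neuronal genes silent in most cells outside the nervous system. In neural cells SRRM4 promotes the inclusion of microexons and the splicing of Rest transcripts into a form with less repressor activity, and REST in turn represses Srrm4. PTBP1 suppresses neuronal exons and productive splicing of Ptbp2, whose product takes its place as neurons form. NOVA, CELF and the neuronal ELAVL (Hu) proteins bind short motifs in transcripts and act on their splicing, and the Hu proteins also on their stability. Hu proteins are known in SCLC as the antigens of anti-Hu paraneoplastic disease. The gene counts used here measure the amount of transcript per gene and do not show which exons were spliced in.

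Rest rose from near the limit of detection to a moderate level, and Srrm4, Elavl3 and Elavl4 fell. Of the 10 members, 1 was called higher and 3 lower by edgeR's quasi-likelihood test at an adjusted p under 0.05, while 6 did not pass. Among all 15936 genes tested, 6.33% were called higher and 1.7% lower, 8.03% in all. The fitted log2 fold change had a median of -1.45 over the members and 0.06 over all genes tested. With sg1 the median was -1.09 over the members and 0.02 over all genes, and with sg2 it was -1.76 and 0.05. Both guides lay below the control for 8 members, as for 37.8% of all genes tested. Both lay above it for Rest, as for 41.2% of all genes, and Ptbp1 was the member with the guides on either side. With a single control library and 1 library for each guide, an SD below is over the 2 guides. The p-values rest on the spread between the guides, the lone control being assumed to vary likewise. That spread was taken mostly from all genes together and less from each gene alone (11.5 prior against 1 residual degrees of freedom). The labels describe separate infections and no further replicate cultures. Differences between guides, infections and cultures thus cannot be told apart in this spread, which may in part be technical.

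The counts of members called were set beside the share of all genes called by each other method. Rest was called higher, and 3 members lower, with upper-quartile factors (5.66% of genes higher, 1.29% lower), library totals (5% and 1.12%), a mean count of at least 50 (5.89% and 1.34%) and limma-voom (3.22% and 1.24%). With DESeq2 size factors 1 was higher and 4 lower (6.44% and 1.85%). With no filter (7.37% and 2.73%) and with DESeq2 (8.59% and 2.41%), 1 was higher and 5 lower. The length correction gave 1 higher and 1 lower (3.99% and 0.697%). On log2(RPKM + 0.1) 1 was higher and 0 lower (3.8% and 0.458%), and on log2(RPKM + 1) 0 in either direction (0.169% and 0.0251%).

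**Figure D1:**
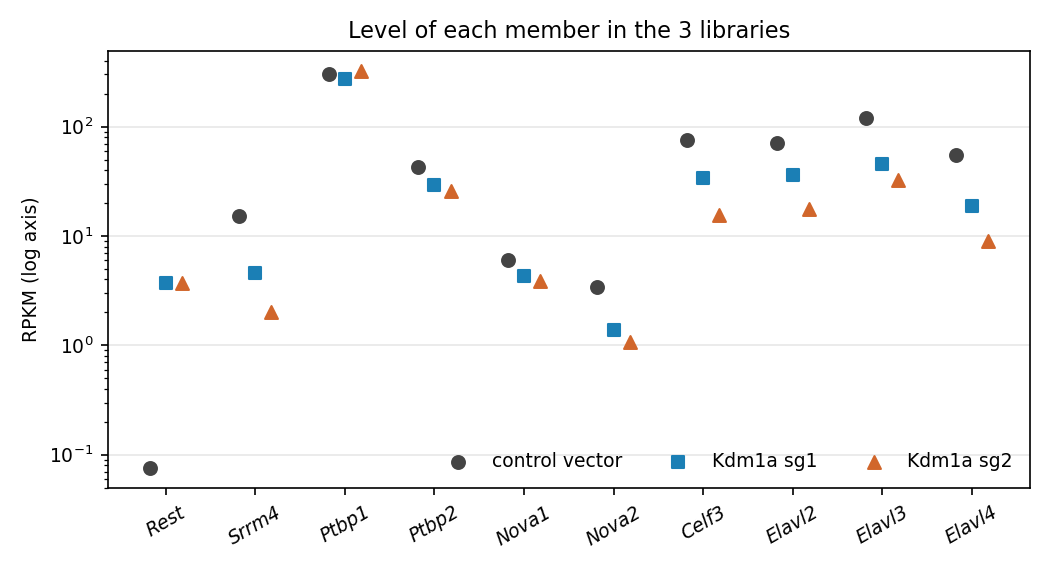
RPKM (reads per kilobase, scaled to library size; log axis) of each member in the control (circle), sg1 (square) and sg2 (triangle) libraries. Rest went from 0.0749 RPKM to 3.73 and 3.68 RPKM, Ptbp1 stayed between 275 and 325 RPKM, and the other 8 members lay below their control with both guides.

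The targeted gene checked the labels. Kdm1a had 11468, 3950 and 5716 counts, a log2 fold change of -1.40 that missed the threshold (edgeR adjusted p = 0.0537). The neuroendocrine label was checked against 8 markers. All 8 were detected in every library, and their summed level was 4182 CPM (counts scaled to the effective library size) in the control, 2898 CPM under sg1 and 2050 CPM under sg2. Markers of other cell types moved as well. All 10 mesenchymal markers rose, 5 of them from 0 counts in the control, with a summed level of 38.6 CPM in the control, 2234 CPM under sg1 and 2305 CPM under sg2. Of 8 fibroblast markers, 4 of 7 tested rose, with sums of 7.59, 397 and 177 CPM, while Lum had 0 counts in all libraries and Col1a2 0, 15 and 6. The sums over 6 alveolar and club cell markers were 1.75, 54.8 and 21.9 CPM, with Cyp2f2 at 37, 0 and 0 counts. Those over 4 endothelial markers were 0.53, 10.6 and 24.9 CPM, with Cdh5 at 0, 1 and 11 counts. Kdr (9, 433 and 1229 counts) made up most of the sums under both guides. The 7 immune markers summed to 4.93, 10.2 and 6.45 CPM, with Ptprc at 0, 0 and 1 count and Adgre1 at 0 throughout. The 5 glial markers summed to 420 CPM in the control, 253 CPM under sg1 and 154 CPM under sg2, of which Mbp made up most, while Sox10 was at 0 in all libraries. The part of these markers in the results on the members was not tested, and in bulk RNA fewer cells of a type and less RNA per cell cannot be told apart.

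Rest (NM_011263; GRCm38 chromosome 5, 77265494 to 77286432) encodes the repressor itself. It had 14, 718 and 810 counts. The control level was 0.323 CPM (95% exact Poisson interval 0.176 to 0.542), against 15.9 CPM for sg1 and 16.02 CPM for sg2. Both guides thus lay far above the control and next to each other, with a ratio of sg2 to sg1 of 1.01 (95% exact counting interval 0.91 to 1.11). The mean of the guides, 15.96 ± 0.0777 CPM, was 49.4-fold above the control. The log2 fold change was 5.62 (SE 0.753, edgeR adjusted p = 0.000443), which placed Rest 216th of the genes tested when ordered by p-value, and 94.9% of genes had a lower log2 fold change. With 14 control counts the size of the fold is loosely held: the counting interval ran from 29.2 to 90.6 for sg1 over the control and from 29.4 to 91.2 for sg2. On the log2(RPKM + 1) scale the call was lost, as given in the closing section.

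The genes most like Rest in their log2 fold changes with both guides, by Euclidean distance over these 2 values, were Pvr, Lamb1, Runx2, Apol9a and Aim2, at distances from 0.11 to 0.30. Pvr encodes the poliovirus receptor, a cell adhesion protein, and had 12, 610 and 661 counts. Lamb1 encodes a laminin chain (36, 1911 and 1691 counts), and Runx2 a transcription factor of bone-forming cells (30, 1380 and 1943 counts). Apol9a, an apolipoprotein L gene, had 2, 144 and 182 counts, and Aim2, a sensor of cytosolic DNA, 11, 696 and 727. Each of these counts was low in the control and high with both guides, and the likeness rests on 3 libraries.

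Srrm4 (NM_026886; chromosome 5, 116439268 to 116592562), whose product drives neural microexon splicing, fell furthest among the members. Its counts were 4997 in the control, 1532 under sg1 and 773 under sg2, or 115, 33.9 and 15.3 CPM. The control was the highest and sg2 the lowest library. The mean of 24.6 ± 13.2 CPM was 4.68-fold below the control (log2 -2.23, SE 0.488, edgeR adjusted p = 0.0121), and 2.5% of genes tested had a lower log2 fold change. With sg2 alone the log2 fold change was -2.91, and with sg1 alone -1.76. Within the control library the RPKM of Srrm4 was 204 times that of Rest. The ratio was 1.22 with sg1 and 0.545 with sg2, so that Rest stood above Srrm4 per length in sg2 and a little below it in sg1. The genes most like Srrm4, at distances from 0.05 to 0.17, were Kcnc1, Abcb4, Nos1ap, Gsdma and Syt1. Kcnc1, a voltage-gated potassium channel gene, had 8334, 2619 and 1322 counts. Syt1, the calcium sensor of synaptic vesicles, had 17103, 4902 and 2412 counts. Abcb4 (274, 87 and 42 counts), Nos1ap (621, 200 and 91) and Gsdma (382, 108 and 56) had far fewer counts and did not pass.

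The neuronal Hu genes were lower with both guides, and 2 of the 3 passed the test. Elavl3 (HuC; NM_010487; chromosome 9, 22015005 to 22052146) was the most abundant, with 26435, 10320 and 8516 counts, or 609, 229 and 168 CPM. It fell 3.07-fold to 199 ± 42.6 CPM (log2 -1.62, SE 0.399, edgeR adjusted p = 0.024). Elavl4 (HuD; NM_001038698; chromosome 4, 110203737 to 110351939) had 10889, 3821 and 2105 counts, or 251, 84.6 and 41.6 CPM. It fell 3.98-fold to 63.1 ± 30.4 CPM (log2 -1.99, SE 0.461, edgeR adjusted p = 0.0169), with -2.59 for sg2 alone and -1.57 for sg1 alone. Both calls were lost with a correction for gene length (adjusted p = 0.0512 for Elavl3 and 0.0576 for Elavl4, within ranges of 0.00256 to 0.109 and 0.000208 to 0.131 over 10 alternatives). Elavl2 (HuB; NM_001177883; chromosome 4, 91211533 to 91400108) had 14184, 7351 and 4162 counts, or 327, 163 and 82.3 CPM, and did not pass (log2 -1.42, SE 0.456, edgeR adjusted p = 0.0861). In all 3 genes the control was the highest and sg2 the lowest library. The summed RPKM of Elavl2, Elavl3 and Elavl4 was 247 in the control, 100.2 under sg1 and 59.6 under sg2. Elavl1 (HuR), the broadly expressed relative, had 12306, 10685 and 12189 counts and did not pass (log2 -0.25, edgeR adjusted p = 0.837). Its RPKM was thus 0.189 of the neuronal sum in the control, 0.392 under sg1 and 0.657 under sg2, and no test of this ratio was made.

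The stretches before the transcription start of the 3 members that fell are shown, since these genes moved together and RE1 elements can lie near starts. Each holds the 250 bases before the start in RefSeq (GRCm38.p6), 5′ to 3′ on the strand of the gene, with the E-box CAGCTG in capitals where it occurred. They are chr5:116591818-116592067 for Srrm4, chr9:22052024-22052273 for Elavl3 and chr4:110351912-110352161 for Elavl4, all on the minus strand. Srrm4 and Elavl3 had 1 start each in the table of promoters, and Elavl4 had 4, of which the most upstream is shown.
Srrm4: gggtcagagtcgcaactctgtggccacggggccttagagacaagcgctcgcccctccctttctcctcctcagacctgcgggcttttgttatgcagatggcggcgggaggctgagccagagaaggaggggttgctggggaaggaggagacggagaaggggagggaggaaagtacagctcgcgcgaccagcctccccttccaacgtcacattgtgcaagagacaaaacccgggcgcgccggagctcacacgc
Elavl3: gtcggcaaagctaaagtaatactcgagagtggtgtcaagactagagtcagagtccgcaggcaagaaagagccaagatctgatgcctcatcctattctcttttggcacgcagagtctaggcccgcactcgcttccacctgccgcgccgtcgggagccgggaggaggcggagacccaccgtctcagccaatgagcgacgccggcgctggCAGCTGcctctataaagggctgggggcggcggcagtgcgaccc
Elavl4: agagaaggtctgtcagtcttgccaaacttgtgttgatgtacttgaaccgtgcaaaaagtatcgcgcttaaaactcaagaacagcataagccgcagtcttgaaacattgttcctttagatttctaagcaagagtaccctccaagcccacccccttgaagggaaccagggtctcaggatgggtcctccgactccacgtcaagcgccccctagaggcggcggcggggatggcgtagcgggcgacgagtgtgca
Of the 3 other windows of Elavl4, not shown, 2 held the E-box. The Elavl3 stretch held 1 E-box, which began 43 bases before the start, and its GC content was 61.6%, against 63.2% for Srrm4 and 53.6% for Elavl4. The E-box is a motif bound by basic helix-loop-helix factors.

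Motifs were searched on both strands in windows of 300 bases, 250 before and 50 after each start, of which 9 members had 23. Rest was not among them. The core of RE1, CAGCACC followed by any 2 bases and GGACAG, was in 0 of the 23 windows and in 0.0365% of all 32851 windows. Its left part, CAGCACC, was in 0 of the 23 and in 7.14% of all windows. Its right part, GGACAG, was in 4 windows of 3 members, Celf3, Elavl2 and Ptbp2. It was in 22.2% of all windows and in those of 24.7% of all genes with a window. The E-box was in 11 windows of 6 members, Celf3, Elavl2, Elavl3, Elavl4, Nova1 and Ptbp1. It was in 16.3% of all windows and in those of 18.3% of all genes with a window. Several starts of 1 gene overlap, so the windows are not independent, and the shorter motifs lie within the core or may overlap one another. A gene with more windows has more chances of a match. The members had 23 windows over 9 genes, against 32851 windows over 27025 genes, so the shares per gene cannot be compared directly. These matches describe letters in the windows, and an element outside them would not be seen. The core was so rare among all windows that 0 of 23 cannot tell whether RE1 is absent from the members. An RE1 with other letters in its core would also be missed. Among genes of the whole table, 9 tested genes had the RE1 core in a window. Of these, 1 was called lower, Ogdhl, a relative of the mitochondrial oxoglutarate dehydrogenase (3697, 1507 and 1066 counts), against 1.7% of all genes tested. Below the control with both guides lay 6 of 9, against 37.8% of all genes tested. The median log2 fold change was -0.79, against 0.06 over all genes. Sptbn4 (90, 277 and 516 counts) and Osbp2 (84, 113 and 101 counts) lay above the control with both guides, and neither passed. Several of the 9 genes had low counts. Ogdhl, Sptbn4 and Osbp2 were named after their values were seen.

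**Figure D2:**
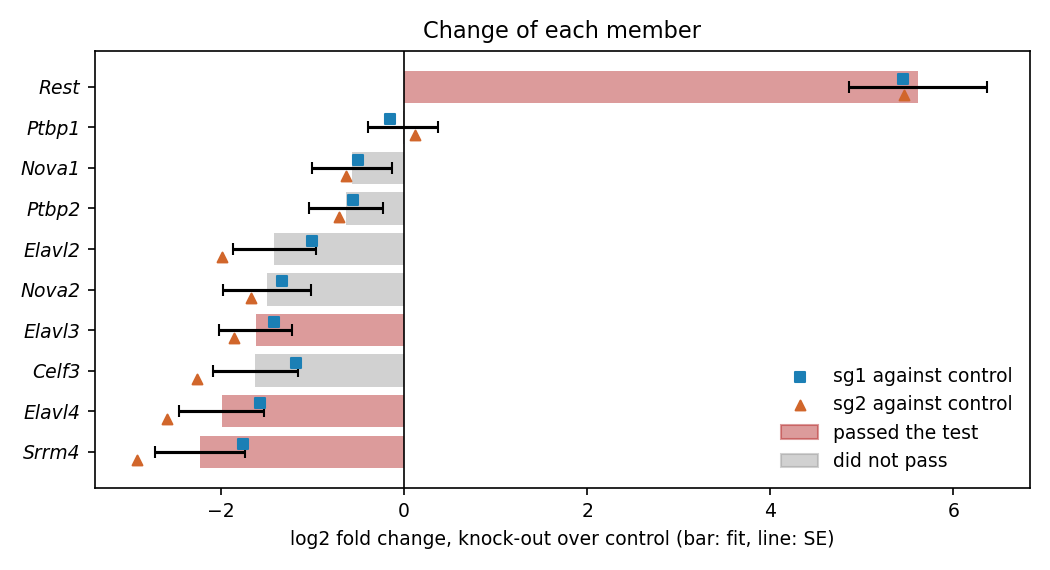
Log2 fold change of the knock-out over the control for each member (bar, with the SE as a line) and for each guide alone (square for sg1, triangle for sg2; per-guide values use a prior count of 2). Red bars passed edgeR's test: Rest at 5.62, Srrm4 at -2.23, Elavl4 at -1.99 and Elavl3 at -1.62.

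Celf3 (NM_001289613; chromosome 3, 94478285 to 94496786), a CELF protein found mainly in the nervous system, came close to the threshold. It had 9065, 4157 and 2214 counts, or 209, 92.1 and 43.8 CPM, with the control above both guides. The mean was 3.08-fold below the control, and the test was missed (log2 -1.62, SE 0.468, edgeR adjusted p = 0.0537). Over 10 alternatives its adjusted p ran from 0.00426 to 0.192, and 3 of them called it lower.

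The NOVA genes, neuronal regulators of alternative exons, did not pass. Nova2 (NM_001029877; chromosome 7, 18925888 to 18965319) had 1263, 522 and 461 counts, or 29.1, 11.6 and 9.12 CPM (log2 -1.49, SE 0.483, edgeR adjusted p = 0.0883). Nova1 (NM_001364634; chromosome 12, 46697895 to 46819480) had 1860, 1364 and 1395 counts, or 42.9, 30.2 and 27.6 CPM (log2 -0.57, SE 0.435, edgeR adjusted p = 0.592). Both genes were highest in the control and lowest with sg2. The level with sg2 was 0.788 of that with sg1 for Nova2 and 0.913 for Nova1. The RPKM of Nova1 was 1.76 times that of Nova2 in the control, 3.13 times under sg1 and 3.62 times under sg2.

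The polypyrimidine tract-binding proteins did not pass either. Ptbp1 (NM_001077363; chromosome 10, 79854432 to 79864435), which suppresses neuronal exons, was the most abundant member in every library per length. It had 38832, 36324 and 49184 counts, or 895, 805 and 973 CPM. The control lay between the guides, and the log2 fold change was -0.01 (SE 0.382, edgeR adjusted p = 0.995), with a sign that changed with the scaling. Ptbp2 (NM_001310711; chromosome 3, 119718741 to 119784647), its neural relative, had 6297, 4454 and 4506 counts, or 145, 98.7 and 89.1 CPM, with the control highest (log2 -0.63, SE 0.405, edgeR adjusted p = 0.489). The RPKM of Ptbp1 was 7.07 times that of Ptbp2 in the control, 9.35 times under sg1 and 12.5 times under sg2. Ptbp1 and Ptbp2 are similar in sequence, as are the Elavl genes, and how the authors treated reads that map to several places is not given in the sources used here.

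Per length, the order of the members in the control ran from Ptbp1 (302 RPKM) over Elavl3 (120 RPKM), Celf3 (75.4 RPKM), Elavl2 (71.1 RPKM), Elavl4 (55.4 RPKM), Ptbp2 (42.7 RPKM), Srrm4 (15.3 RPKM), Nova1 (6.07 RPKM) and Nova2 (3.44 RPKM) to Rest (0.0749 RPKM). In the knock-out Ptbp1 (299.8 ± 35.4 RPKM) and Elavl3 (39.2 ± 8.998 RPKM) still led. The range of the guides for Ptbp1 was apart from those of all other members, while that of Elavl3 (32.8 to 45.5 RPKM) was apart from that of Ptbp2 but overlapped those of Elavl2 (17.7 to 35.8 RPKM) and Celf3 (15.6 to 33.6 RPKM). Ptbp2 (27.7 ± 2.42 RPKM), Elavl2 (26.7 ± 12.8 RPKM), Celf3 (24.6 ± 12.7 RPKM) and Elavl4 (14.0 ± 6.93 RPKM) followed, and the ranges of neighbours among these 4 overlapped. Nova1 (4.09 ± 0.327 RPKM) came next. Its range overlapped that of Srrm4 (3.27 ± 1.8 RPKM), as did that of Rest (3.71 ± 0.0392 RPKM), and Nova2 (1.23 ± 0.224 RPKM) was lowest. Rest thus moved from rank 10 in the control to rank 9 with sg1 and rank 8 with sg2.

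The guides differed from each other in most of the lower members. With 1 library per guide there is no test, and the intervals of the ratios cover counting error only. The level with sg2 was 0.45 of that with sg1 for Srrm4 (95% interval 0.413 to 0.491), 0.475 for Celf3 (0.451 to 0.501), 0.492 for Elavl4 (0.466 to 0.519) and 0.505 for Elavl2 (0.486 to 0.525). It was 0.737 for Elavl3, 0.788 for Nova2, 0.903 for Ptbp2 and 0.913 for Nova1, all with intervals below 1. Ptbp1 was higher with sg2 (1.21, interval 1.19 to 1.23), and the interval of Rest spanned 1. In all, 8 of 10 members were lower with sg2 than with sg1, as were 51.6% of all genes tested. Kdm1a itself was higher with sg2 (113 CPM) than with sg1 (87.5 CPM). The guide with more Kdm1a mRNA thus had the lower level of these 8 members. Gene counts do not measure LSD1 protein, so they do not rank the guides by the extent of knock-out. Long genes were lower with sg2 across the table. The length trend, which a correction for gene length removes, came to -0.63 (log2) with sg2 for Srrm4, -0.72 for Nova2, -0.36 for Elavl3 and -0.29 for Elavl4, and to 0.01 for Celf3. With that correction the log2 fold change of Srrm4 was -1.89 (edgeR adjusted p = 0.0474, over 10 alternatives from 6.3e-05 to 0.172), and that of Nova2 -1.04 (adjusted p = 0.227, over 10 alternatives from 0.0513 to 0.35).

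**Figure D3:**
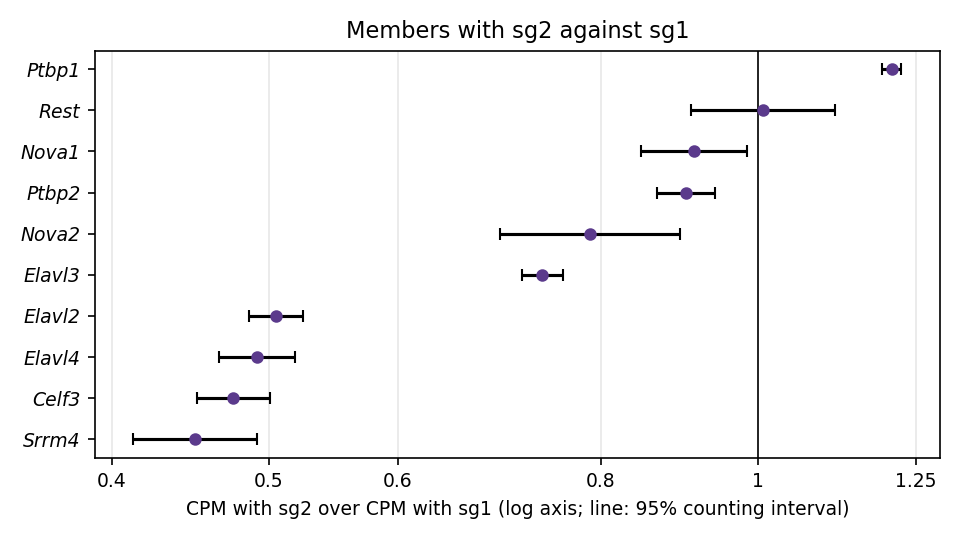
Ratio of the level (CPM) with sg2 to that with sg1 for each member on a log axis, with the 95% counting interval as a line. Srrm4, Celf3, Elavl4 and Elavl2 lie between 0.45 and 0.505, Rest at 1.01 and Ptbp1 at 1.21.

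In the authors' deposited lists, 8 members stood among the 2154 lower genes and Rest among the 1833 higher genes, and Ptbp1 was in neither. The lists hold 8.78% and 7.47% of the genes of the table. In the authors' deposited table of lower genes the largest fold over the control was 0.75 with either guide. The same authors' deposited table gave Nova1 a fold of 0.713 with sg1 and 0.636 with sg2, and Ptbp2 0.687 and 0.607. These 2 members are thus on the authors' deposited list but did not pass the test here. The same holds for Celf3, Elavl2 and Nova2. Of the members on that list, only Srrm4, Elavl3 and Elavl4 passed.

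Close relatives of the members were compared next. Of 8 paralogs, 0 passed edgeR's test, 2 had an unadjusted p under 0.05, DESeq2 called 1 and limma-voom 0. All 8 fitted log2 fold changes lay below 0, as did 46.6% of those of all genes tested, and their median was -0.78. Celf5, a neural CELF gene, had 1433, 498 and 595 counts (log2 -1.54, edgeR adjusted p = 0.068). Srrm3, the paralog of Srrm4 with a like role in microexon splicing, had 4079, 2382 and 1518 counts (log2 -1.18, edgeR adjusted p = 0.161).

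Of 16 other regulators of neural splicing, 1 passed, against 8.03% of all genes tested, and the median log2 fold change was -0.10. Raver2, which encodes a cofactor that binds PTBP proteins, rose from 2 counts to 100 with sg1 and 201 with sg2 (edgeR adjusted p = 0.0103). The list had 0 higher calls with limma-voom, on both RPKM scales and after correcting for length. The Rbfox genes, regulators of neuronal and muscle exons, had mixed values and none passed. Rbfox1 had 178, 52 and 31 counts (edgeR adjusted p = 0.155), and Rbfox3, which encodes the neuronal marker NeuN, had 88, 505 and 437 (log2 2.29, edgeR adjusted p = 0.0576). The Rbfox genes were named after their values were seen.

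Splicing regulators of epithelial and muscle cells were also examined, and 3 of 7 tested rose, against 6.33% of all genes tested. Rbpms2, a smooth muscle RNA-binding protein, rose from 2 to 279 and 439 counts (edgeR adjusted p = 0.00082), Rbm47 from 9 to 167 and 561 (log2 5.14, adjusted p = 0.00716) and Rbpms from 494 to 2037 and 5375 (log2 2.73, adjusted p = 0.0124). The list had 1 higher call with the length correction (3.99% of all genes) and 0 on log2(RPKM + 1) (0.169%). Esrp1 and Esrp2, regulators of epithelial exons that were named after their values were seen, did not pass (log2 -0.62 and -1.08, edgeR adjusted p = 0.579 and 0.209). Of 22 general splicing factors, 0 passed edgeR's test and 0 had an unadjusted p under 0.05, and DESeq2 and limma-voom called 0. Their median log2 fold change was -0.01, and the largest values were those of Hnrnpa1 (0.48) and Srsf7 (-0.39).

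**Figure D4:**
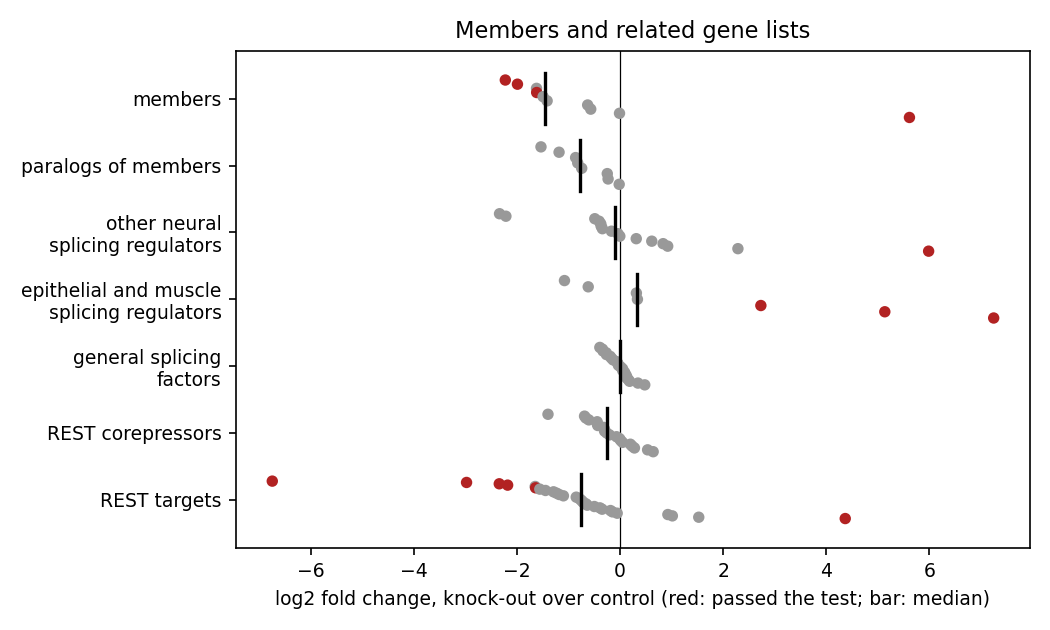
Log2 fold change of the knock-out over the control for each tested gene of the members and of 6 related lists; red points passed edgeR's test, grey points did not, and bars are medians. The medians were -1.45 for the members, -0.78 for the paralogs and the listed REST targets at -0.76, against -0.01 for the general splicing factors.

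The partners through which REST acts were then examined. Of 21 corepressor genes, 0 passed edgeR's test and 1 had an unadjusted p under 0.05, the targeted gene Kdm1a, while DESeq2 called 1 and limma-voom 0. The median log2 fold change was -0.26. Rcor1, which encodes the CoREST scaffold, had 3314, 2753 and 1708 counts (log2 -0.69, edgeR adjusted p = 0.513). Of 6 genes that act on REST protein stability, 0 passed, 0 had an unadjusted p under 0.05, and DESeq2 and limma-voom called 0. Btrc, the ubiquitin ligase subunit that marks REST for degradation, had 1427, 1022 and 1044 counts (log2 -0.60, edgeR adjusted p = 0.581).

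Known REST targets leaned lower as a list, although most did not pass. Of 29 tested, 5 fell, 1 rose and 23 did not pass, and 20 lay below the control with both guides. Among all genes tested, 1.7% were called lower, 6.33% were called higher and 37.8% lay below the control with both guides. The median log2 fold change was -0.76, with -0.51 for sg1 and -1.42 for sg2. Scn3b, a sodium channel subunit, fell from 248 to 25 and 45 counts, and Grin1, the obligate NMDA receptor subunit, from 2022 to 537 and 327. Syn1 and Chga, a synaptic vesicle and a secretory granule gene named after their values were seen, also fell. Calb1, which encodes the calcium buffer calbindin, went the other way, from 28 to 922 and 323 counts (log2 4.37, edgeR adjusted p = 0.0074). Over the 10 alternatives the number called lower ran from 0 on log2(RPKM + 1) to 8 without a filter. It was 2 on log2(RPKM + 0.1), 3 with limma-voom and 7 with DESeq2. Of all genes, these settings called 0.0251%, 2.73%, 0.458%, 1.24% and 2.41% lower, in that order. The number called higher ran from 0 to 2, against 0.169% to 8.59% of all genes. Gria2, a glutamate receptor gene that was named after its values were seen, had 6078, 8402 and 1718 counts and did not pass.

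The genes of the neural microRNAs miR-9 and miR-124 gave few counts in these libraries. Those microRNAs act on Rest and Ptbp1 transcripts, respectively, in neural cells. Mir9-3hg, a host gene of miR-9, had 213, 217 and 180 counts (log2 -0.23, edgeR adjusted p = 0.92). The host genes and hairpins of miR-124 in the table had 0 counts in all 3 libraries, which allows up to 0.0692 CPM in the control, 0.0665 CPM under sg1 and 0.0593 CPM under sg2. Gene counts of this kind do not measure the mature microRNAs.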

How the data were processed

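Total RNA libraries of 3 cultures were sequenced. The authors deposited raw read counts per gene, made with TopHat2 2.0.12, HTSeq 0.6.1 and Bowtie2 2.2.3 on mm10, as the submitters' processing notes list them; the sources used here give neither settings nor strand. The authors also deposited RPKM values per gene (reads per kilobase, scaled to library size) and lists of higher and lower genes, whose fold over the control was copied only where the authors' deposited table is named. The counts were tested with edgeR 4.0.16 (R 4.3.3): TMM factors, filterByExpr, a quasi-likelihood F test of knock-out against control (1 residual and 11.5 prior degrees of freedom), and Benjamini-Hochberg adjustment over 15936 genes. An SE is the log2 fold change over the square root of F. CPM use the effective library size, and a fold is a ratio of mean CPM. Per-guide log2 fold changes, medians and distances use a prior count of 2. Counting intervals (95%) are exact and reflect counting error alone, because PCR copies were not marked by molecular identifiers; a count of 0 allows 3 counts. The members and lists were chosen with earlier results of these data known. All members are named; each list gives up to 4 genes that passed with the largest change, or 2 where none passed, at 1 CPM or more, and exceptions are marked. Some genes that this rule names are not reported here. The 5 genes nearest to Rest and to Srrm4 were taken at 2 CPM or more, without predicted genes. Promoter sequences and positions are RefSeq's for GRCm38.p6, matched by Entrez identifier. The listed symbol Scn2a1 was matched to Scn2a, its present name. Alternatives were DESeq2 1.42.0 size factors, upper-quartile factors, library totals, no filter, mean counts from 50 upward, DESeq2's Wald test, limma 3.58.1 (voom; trend on log2(RPKM + 1) and log2(RPKM + 0.1)), a loess correction for gene length (from the ratio of counts to RPKM), and each guide left out. On simulated data (15936 genes, 5 runs), the fit recovered 43.8% of 4-fold and 83.0% of 16-fold changes, and 6.35% of calls were false. Python 3.11.15, pandas 2.3.3 and matplotlib 3.10.9 were used.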

Additional observations from a re-analysis of the deposited data

How the results depend on the processing

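Rest passed in 9 of 10 alternatives with a test. On log2(RPKM + 1) with limma-trend its log2 fold change was 2.13 (adjusted p = 0.0757, over all 10 from 1.52e-13 to 0.0757). The added 1 shrinks log2 fold changes of low genes, and whether this led to the lost call was not tested. On that scale 27 genes in all were called higher and 4 lower. Without a guide, which leaves 1 library against 1 and no test, the log2 fold change of Rest was 5.61 to 5.62. The members called higher numbered 1, and 0 on log2(RPKM + 1). The members called lower numbered 3, with 5 without a filter and with DESeq2, 0 on both RPKM scales and 1 with the length correction; Srrm4 passed in 8 of 10, Elavl3 and Elavl4 in 7, Celf3 in 3, Elavl2 in 2, and the other 4 in 0. The sign of Ptbp1 turned with upper-quartile factors (0.0084) and the length correction (0.0036). Without a guide, no member that passed changed sign. Genes called higher, 1008 in all, numbered 513 with limma-voom, 27 on log2(RPKM + 1), 606 on log2(RPKM + 0.1) and 636 with the length correction. Genes called lower, 271 in all, numbered 178 with library totals, 511 without a filter, 180 at a mean count of at least 50, 4 and 73 on the RPKM scales and 111 with the length correction. The cause of these shifts was not tested. Increases were 78.8% of calls, and 89.2% on log2(RPKM + 0.1). No paired analysis was possible because the control is 1 library. With 14 control counts, depth limits the size of the change of Rest.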
